A study of Mus musculus with 10 samples.

Results

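Polycomb repressive complexes keep developmental genes silent, and male germ cells are known for promoters that carry their mark together with the mark of active promoters, the state called bivalent. PRC2 methylates lysine 27 of histone H3, and PRC1 adds ubiquitin to histone H2A. Demethylases of the KDM6 family erase the first of these marks, while KMT2B methylates lysine 4 of histone H3 at bivalent promoters. The data below follow 10 genes of this system, Ezh1, Ezh2, Eed, Suz12, Scml2, Kdm6a, Kdm6b, Kmt2b, Ring1 and Rnf2, which were picked by name for their function. All 10 had a row among the 28125 genes of the scRNA-seq matrix and among the 30670 genes of the scATAC-seq matrix, and their values in all 13 cell populations were read from both.

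Testis nuclei came from wild-type C57BL/6J mice aged 11, 17 and 25 days post-partum and from adults aged 8 weeks, either Cre/+ or Nfya-CKO, with RNA and accessible chromatin read from the same nuclei and 1 library per condition and assay. In Nfya-CKO mice, Stra8-Cre, which acts in premeiotic germ cells, deletes a floxed part of Nfya, the DNA-binding subunit of the CCAAT-binding factor NF-Y, and Cre/+ mice carry the Cre alone. The populations pool all libraries: spermatogonia that are undifferentiated (undiff. SpG) or differentiating (diff. SpG), preleptotene (pL), early leptotene to zygotene (eL/L/Z), leptotene to early pachytene (L/Z/eP), middle and late pachytene (mP/lP) and diplotene (D) spermatocytes, round (RS) and elongating (ES) spermatids, Sertoli cells, other somatic cells, an unknown population and the SpG of the library labelled Nfya-CKO. RNA levels are mean unique molecular identifiers (UMIs) per 10000 UMIs of a cell, and scATAC-seq levels are signal per 1000000 of a population. The study's methods define promoter accessibility as mean coverage around the start site, but the sources do not state whether the deposited matrix holds this or another region of a gene. Of the 343866 scATAC-seq cells, 31569 were paired with RNA. The sources used here do not state which of these cells the scATAC-seq matrix pools. Each level is 1 pooled value with no replicate, so no p-value could be computed, and ratios were read by size alone. The 95% Poisson intervals of RNA levels cover counting error only.

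The populations differ in age and library as well as in stage. Undiff. SpG (1292 cells) were 92.0% juvenile, whereas 84.5% of diff. SpG (927 cells) came from Cre/+ and all 491 SpG of the library labelled Nfya-CKO from 8-week-old mice, so stage, age, genotype and library cannot be told apart. Of the 28 germ cell and Sertoli markers examined, 19 were highest in the population they name, with 1 of 3 for diff. SpG and 1 of 3 for pL. This count left out the unknown population and SpG of the library labelled Nfya-CKO, where Gfra1 and Uchl1 were higher than in undiff. SpG. Markers of leptotene and zygotene were counted if highest in either eL/L/Z or L/Z/eP. Libraries also shared cell barcodes. The Cre/+ library and the library labelled Nfya-CKO had 3820 barcodes in common, 74.1% of the cells of the latter, whereas either of them shared at most 19 with any wild-type library and the 3 wild-type libraries shared 621 to 853 pair by pair. Of the 491 SpG of the library labelled Nfya-CKO, 144 carried a barcode also seen in diff. SpG, with a median of 21762 UMIs against 2375.5 there, and 0 had a barcode of undiff. SpG or pL. Among the other somatic cells, 4126 of 5883 had a barcode that occurs in another library. The matrices are pooled, so the levels could not be recomputed without these cells.

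Ezh2 was the gene with the largest contrast between control germ cells and the library labelled Nfya-CKO, and the 250 bases before its start hold 3 copies of the pentamer that NF-Y binds, CCAAT, counted on both strands. Suz12 held 1 copy and the other 6 of the 8 genes with a sequence in the RefSeq promoter table (GRCm38.p6) held none. A match is a description of the letters only. At least 1 copy stands in 33.8% of all 32851 promoters over the same 250 bases, at least 3 copies in 2.79%. Parts of these windows are shown because the results below turn on Ezh2, on its PRC2 partner Suz12 and on its paralog Ezh1, which had no copy. Each reads 5′ to 3′ on the strand of its gene, and capitals mark CCAAT or its reverse complement. The Ezh2 stretch is chr6:47595059-47595183 on the minus strand, from base -153 to base -29 before the start. The promoter table takes 1 start per gene, and copies were counted from that start only, not from other starts. For Ezh2, Kdm6a and Scml2 this start lies inside the outermost bounds RefSeq gives the gene. The Ezh2 stretch is therefore within the bounds printed below for Ezh2. It was limited to the longest run outside annotated exons, and it holds the copies at -90 and -64 but not the one at -11. The Suz12 stretch is chr11:79992856-79993105 on the plus strand, and the Ezh1 stretch is chr11:101226464-101226713 on the minus strand.
Ezh2: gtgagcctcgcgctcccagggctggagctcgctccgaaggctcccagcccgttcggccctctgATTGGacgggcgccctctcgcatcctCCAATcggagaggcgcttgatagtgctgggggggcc
Suz12: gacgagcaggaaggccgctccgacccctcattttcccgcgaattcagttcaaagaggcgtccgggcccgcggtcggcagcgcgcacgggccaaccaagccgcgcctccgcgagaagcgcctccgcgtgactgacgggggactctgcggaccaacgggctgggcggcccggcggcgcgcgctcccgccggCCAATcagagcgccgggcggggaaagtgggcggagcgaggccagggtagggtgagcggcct
Ezh1: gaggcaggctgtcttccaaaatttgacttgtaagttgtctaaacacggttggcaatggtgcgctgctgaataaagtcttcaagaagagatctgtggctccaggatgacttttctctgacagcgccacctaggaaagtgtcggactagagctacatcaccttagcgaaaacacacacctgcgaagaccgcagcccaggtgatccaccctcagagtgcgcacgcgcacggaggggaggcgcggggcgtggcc

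Over the full window of 250 bases before to 50 after the start, Eed also held CCAAT, at base 26 after its start, so that 3 of the 8 genes held it against 37.4% of all promoters. The GC box GGGCGG, the site of Sp and Klf factors, stood in 4 of the 8 (Suz12, Ring1, Rnf2 and Kdm6a) against 35.7% of all promoters, with 3 copies each in Suz12 and Ring1. The E2F site TTTNGCGC, searched on both strands, stood in Ezh2 alone, at base 4 after its start, against 1.38% of all promoters. Over the 250 bases before the start, Suz12 and Ring1 were the richest in G and C, at 73.6% each, while the median over all promoters was 52.4%. Ezh1 (55.2%), Eed (54.4%) and Scml2 (56.8%) were the closest to that median.

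Of the catalytic subunits of PRC2, Ezh2 was highest in meiotic prophase and Ezh1 in undiff. SpG. Ezh2 (chr6:47530274-47595270) had an RNA level of 1.08 in undiff. SpG (95% Poisson interval 1.01 to 1.15), 1.27 in diff. SpG, 1.67 in pL and 1.79 in eL/L/Z. It was highest in L/Z/eP, at 1.96 (1.88 to 2.04), and lower at each later stage, with 1.79 at mP/lP, 1.51 in D, 1.04 in RS and 0.769 in ES (0.664 to 0.886). In the order of levels, the intervals of mP/lP, eL/L/Z and pL met, whereas those of L/Z/eP and mP/lP did not. Ezh1 (chr11:101191115-101226463), the paralog, had another course. Its RNA level was highest in undiff. SpG, at 1.35 (1.27 to 1.42), and lowest in RS, at 0.209 (0.186 to 0.234), a 6.45-fold range. In between it was 0.835 in diff. SpG, 0.742 in pL, 0.894 in eL/L/Z, 0.627 in L/Z/eP, 0.399 at mP/lP and 0.332 in D, and it was 0.434 in ES. In somatic cells Ezh1 was at 0.492 (Sertoli) and 0.542 (other somatic), and Ezh2 at 0.845 and 0.688.

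**Figure D1:**
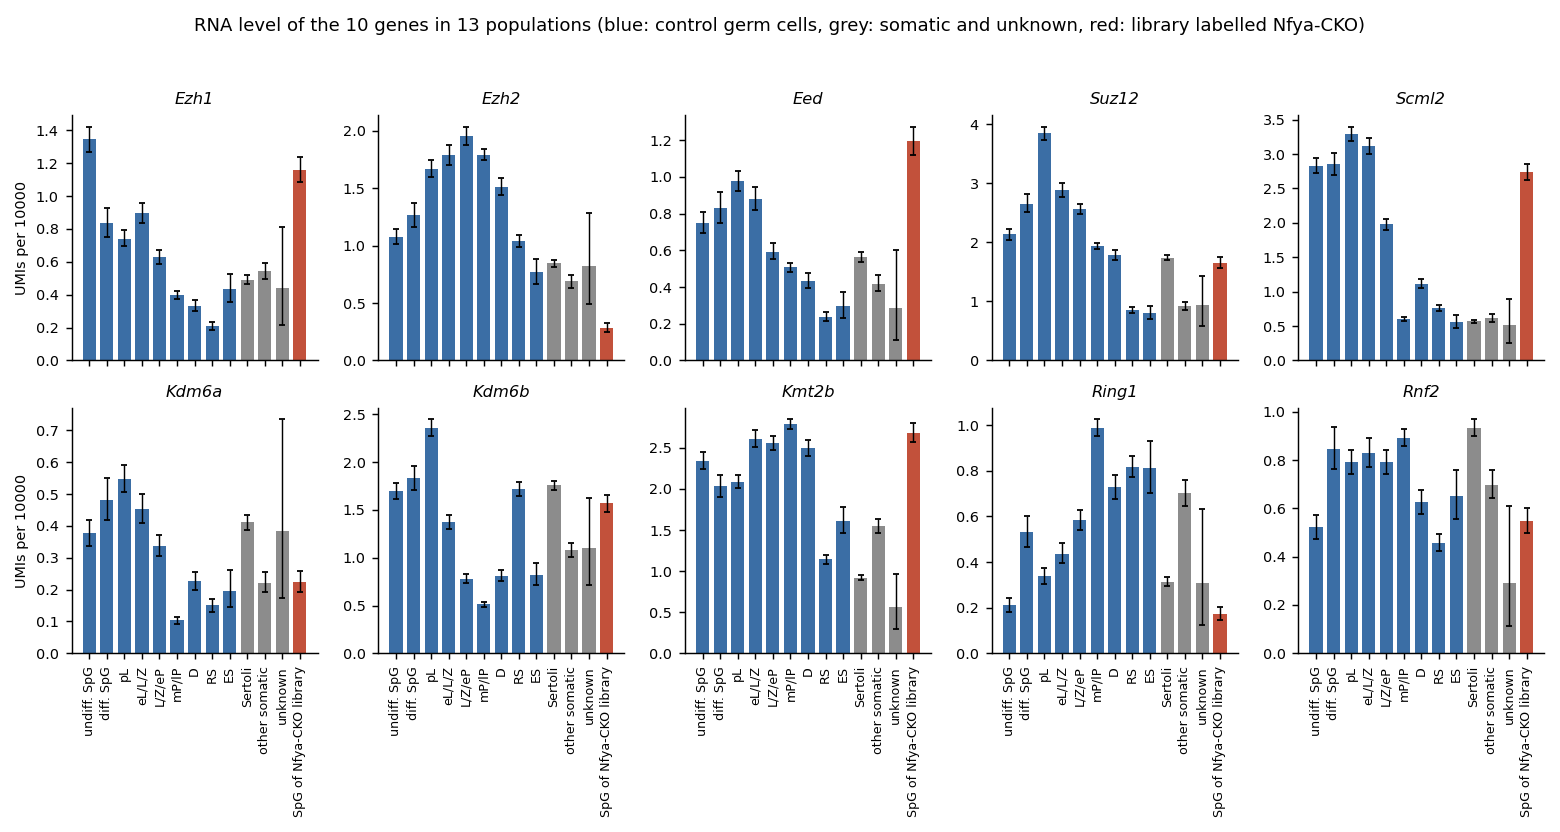
RNA level of each of the 10 genes (bars, UMIs per 10000) in the 13 populations along the horizontal axis, with 95% Poisson intervals (black lines, counting error only). Ezh2 (0.283) and Ring1 (0.173) have their lowest bar in the library labelled Nfya-CKO, while Scml2 goes from 3.30 in pL to 0.605 in mP/lP and Ring1 is highest in mP/lP, at 0.990.

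Among the control germ cells, both partners of the enzymes were highest at the entry into meiosis. Suz12, the scaffold of PRC2 (chr11:79993106-80034123), was at 2.13 in undiff. SpG, 2.66 in diff. SpG and 3.85 in pL (3.74 to 3.96), above every other population without overlap of the intervals. From there it went through 2.88 in eL/L/Z, 2.56 in L/Z/eP, 1.94 in mP/lP and 1.79 in D to 0.855 in RS and 0.806 in ES. Eed (chr7:89954654-89980976), the subunit that reads the PRC2 mark, had a similar course, although its interval in pL met that of eL/L/Z, which met that of diff. SpG, with 0.751, 0.829, 0.976, 0.878 and 0.593 from undiff. SpG to L/Z/eP. It reached 0.507 in mP/lP, 0.433 in D, 0.239 in RS and 0.296 in ES. Over the 9 control germ cell populations, Pearson's r of the log2 RNA levels of Eed and Suz12 was 0.95. Ezh2 had an r of 0.76 with Suz12 and 0.16 with Ezh1. These correlations describe 9 pooled levels that share libraries and depth. Ezh2, Suz12, Kdm6b and Rnf2 overlap other annotated genes of the matrix on the opposite strand (Gm26625, Gm26563, Kdm6bos and Trmt1l), and the sources used here do not state whether counting used strand.

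The ubiquitin ligases of PRC1 differed in their course. Ring1 (chr17:34020792-34024680) had an RNA level of 0.210 in undiff. SpG (0.181 to 0.242), 0.530 in diff. SpG, 0.338 in pL, 0.436 in eL/L/Z and 0.584 in L/Z/eP. It peaked in mP/lP, at 0.990 (0.954 to 1.03), and stayed at 0.728 in D, 0.819 in RS and 0.812 in ES, where the intervals of neighbours met. Rnf2 (chr1:151469398-151500991), the other ligase, was the flattest of the 10 genes, with a 1.95-fold range over the control germ cells. It ran from 0.458 in RS and 0.522 in undiff. SpG to 0.893 in mP/lP, and its level in Sertoli cells was 0.933 (0.898 to 0.968). The ratio of Ring1 to Rnf2 UMIs went from 0.402 in undiff. SpG to 1.11 in mP/lP and 1.79 in RS. UMIs of different genes are not scaled by length, so the change of such a ratio between populations is read here and not the ratio itself.

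The ratio of Ezh1 to Ezh2 UMIs went from 1.25 in undiff. SpG to 0.444 in pL, 0.223 in mP/lP and 0.201 in RS. In ES it was 0.565. It stood at 4.10 in SpG of the library labelled Nfya-CKO, the highest of the 13 populations. The ratio of Kdm6a to Kdm6b UMIs was lowest in RS, at 0.0875, and highest in L/Z/eP, at 0.430.

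**Figure D2:**
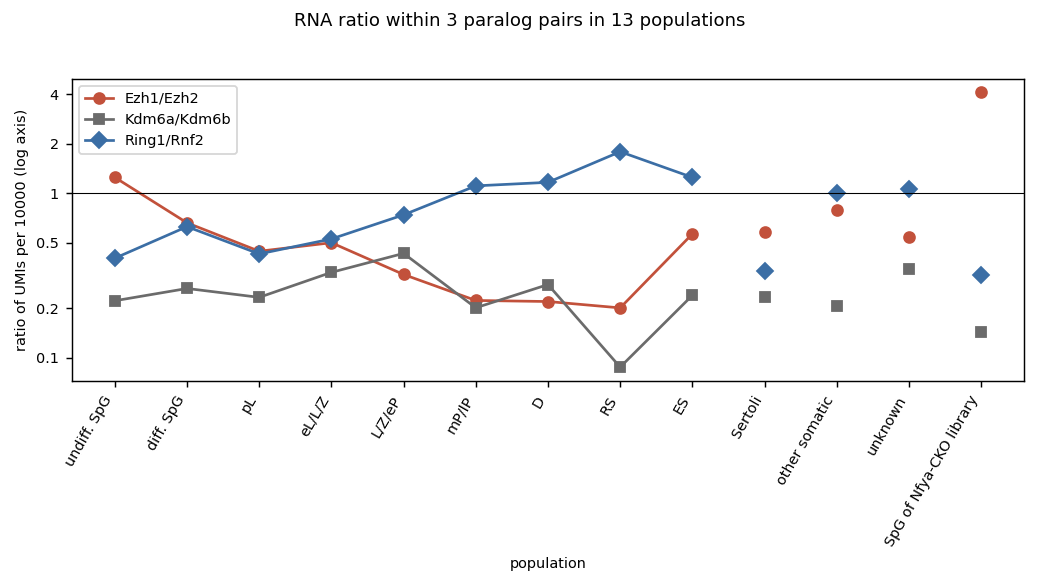
Ratio of the UMIs per 10000 of the paralogs Ezh1/Ezh2, Kdm6a/Kdm6b and Ring1/Rnf2 (vertical log axis) in the 13 populations, with a line through the 9 control germ cell populations and 1 pooled value per point. Ezh1/Ezh2 goes from 1.25 to 0.201 from undiff. SpG to RS and stands at 4.10 in the library labelled Nfya-CKO, while Ring1/Rnf2 goes from 0.402 to 1.79.

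Genes that add or erase marks had separate courses. Kdm6b (chr11:69398508-69420367), a demethylase of lysine 27, was high early and again in RS. It was 1.70 in undiff. SpG, 1.83 in diff. SpG and 2.36 in pL, then 1.37 in eL/L/Z, 0.782 in L/Z/eP, 0.514 at mP/lP, 0.814 in D and 1.72 in RS (1.65 to 1.79), and 0.823 in ES. Kdm6a (chrX:18160862-18279936), the X-linked demethylase, ranged over the control germ cells from 0.549 in pL (0.508 to 0.592) to 0.103 in mP/lP (0.0920 to 0.115). Its level was 0.376 in undiff. SpG, 0.482 in diff. SpG, 0.453 in eL/L/Z, 0.336 in L/Z/eP, 0.226 in D, 0.150 in RS and 0.197 in ES. Kmt2b (chr7:30568855-30589056), the methyltransferase of bivalent promoters, stayed between 2.03 and 2.79 from undiff. SpG to D. It was 1.14 in RS (1.09 to 1.20) and was 1.62 in ES. Scml2 (chrX:161082525-161258218), an X-linked germ cell partner of PRC1, was 2.83 in undiff. SpG, 2.86 in diff. SpG, 3.30 in pL and 3.11 in eL/L/Z. It was 1.98 in L/Z/eP, 0.605 in mP/lP (0.578 to 0.634), 1.11 in D, 0.761 in RS and 0.565 in ES. In Sertoli cells its level was 0.566.

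Entry into meiosis was compared as pL against undiff. SpG, with log2 ratios taken of RNA + 0.1 and of scATAC-seq signal + 1. RNA of 8 of the 10 genes was higher in pL, none by 2-fold. Over all genes with a mean of at least 0.05 UMIs per 10000, 2.83% were at least 2-fold higher and 7.64% at least 2-fold lower. The largest difference was that of Suz12 (log2 ratio 0.82), and Ezh1 was lower (-0.78). The median of the 10 genes was 0.45, against -0.02 for all genes. In scATAC-seq, 9 of the 10 were higher, again none by 2-fold, where 0.576% of all genes were at least 2-fold higher and 1.6% lower. The median of the 10 genes was 0.44, against 0.06 for all genes. Suz12 led here too, going from 54.9 to 94.6 per 1000000 (log2 ratio 0.77), followed by Kdm6b, from 18.2 to 29.0 (0.64). Scml2 was the gene with a negative ratio (-0.29), on signals of 2.6 and 1.9 per 1000000.

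In mP/lP against undiff. SpG, the 10 genes parted. Ring1 was at least 2-fold higher in RNA (log2 ratio 1.81), as were 15.4% of all genes. Ezh1 (-1.53), Scml2 (-2.06), Kdm6a (-1.23) and Kdm6b (-1.55) were at least 2-fold lower, as were 23.4% of all genes. Kdm6a was within 2-fold with a pseudocount of 0.5 or relative to the median of all genes. Ezh2 (0.68), Rnf2 (0.68), Kmt2b (0.24), Suz12 (-0.13) and Eed (-0.49) lay within 2-fold. In scATAC-seq no member passed 2-fold, against 2.49% of all genes higher and 22.5% lower. With mitochondrial genes left out of the scaling, Scml2 was at least 2-fold higher. Ezh1 came nearest on the lower side, from 27.8 to 15.0 per 1000000 (-0.84). Ring1, whose RNA was higher, was at 35.7 and 21.9 per 1000000 (-0.68). These scATAC-seq directions turn with the scaling: 9 of the 10 genes were lower with mitochondrial genes included, whereas without them Ezh1 (-0.30) and Ring1 (-0.12) alone were, and the median of the 10 genes was 0.21.

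In RS against mP/lP, Kdm6b RNA was at least 2-fold higher (log2 ratio 1.57, from 0.514 to 1.72), as were 22% of all genes. Suz12 (-1.10) and Kmt2b (-1.22) were at least 2-fold lower, as were 9.82%. The median of the 10 genes was -0.71, against -0.10 for all genes. scATAC-seq signal of 9 of the 10 was higher in RS, with Ring1 the gene past 2-fold (1.11, from 21.9 to 48.5 per 1000000), where 18.3% of all genes were at least 2-fold higher and 0.0329% lower. This shift was one of the whole matrix, since its median was 0.62 and that of the 10 genes 0.50. Relative to that median, or scaled without mitochondrial genes, Ring1 was within 2-fold and Scml2 was instead at least 2-fold lower. The median of the 10 genes was then -0.11 and -0.08, so that its direction turned with the scaling. Kdm6b had the second largest increase, from 14.9 to 29.4 per 1000000 (0.94).

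In ES against RS, no member passed 2-fold in RNA, against 10% of all genes higher and 11.3% lower. Kdm6b (-0.98) and Ezh1 (0.79) came nearest, and Kdm6b did pass it with a pseudocount of 0.02. In scATAC-seq, Ring1 was 2-fold lower, at 23.7 against 48.5 per 1000000, with 15% of all genes lower and 6.56% higher. Rnf2 had its highest signal of all populations in ES, 80.1 against 44.0 per 1000000 in RS (0.85). Scaled without mitochondrial genes or with a pseudocount of 5, Ring1 was within 2-fold, and relative to the median of all genes Rnf2 was 2-fold higher instead. ES held 1195 cells for RNA, and 124 scATAC-seq cells were paired with one of them. Sertoli and Leydig markers were also present in ES, with 31.3 of Clu and 3.81 of Insl3 per 10000, and their part in these values was not tested.

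**Figure D3:**
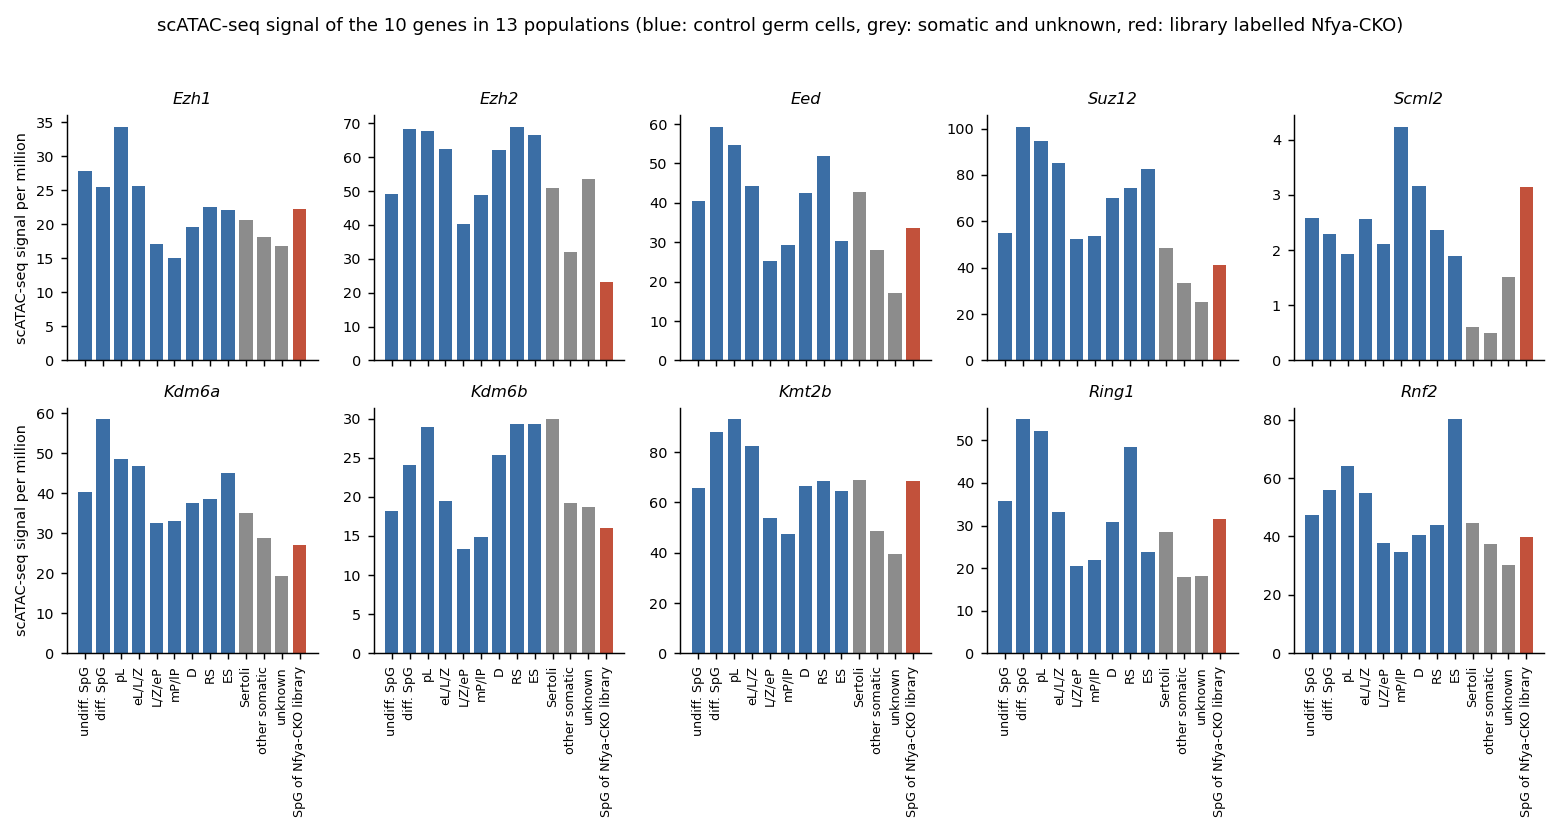
scATAC-seq signal of the 10 genes (bars, per 1000000 of a population) in the 13 populations along the horizontal axis, with 1 pooled value per bar. The range over the 9 control germ cell populations was 1.71-fold for Ezh2 and 2.67-fold for Ring1, against 2.55-fold and 4.72-fold in RNA. Rnf2 had the wider range in scATAC-seq (2.30-fold against 1.95-fold), and Scml2 stayed between 1.9 and 4.2 per 1000000 there. Scaled without mitochondrial genes, Rnf2 ran from 73.7 in RS to 142 in ES, which is not wider than its range in RNA.

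How RNA and accessibility related over the 9 control germ cell populations depended on the scaling. The share of the scATAC-seq signal in mitochondrial genes, which lowers all other values of a population, was 63.8% in L/Z/eP and 31.2% in pL. Pearson's r of log2 RNA and log2 scATAC-seq levels was 0.52 for Ezh1, and 0.72 when mitochondrial genes were left out of the scaling, a scaling added here once these values were known. For Ezh2 it was -0.45 and 0.17, for Kmt2b -0.23 and 0.49, and for Kdm6b 0.51 and -0.16, so that the sign turned for each of the 3. Kdm6a went from 0.65 to 0.18. Scml2 (-0.36 and -0.42) and Ring1 (-0.40 and -0.25) were negative under both scalings. Ezh2 signal in L/Z/eP, where its RNA was highest, was the lowest of the control germ cells with mitochondrial genes in the scaling (40.4 per 1000000) but not without them (112, against 83.0 in undiff. SpG). These are 9 pooled values that share libraries, given as a description.

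Scml2 and Kdm6a lie on the X chromosome, which is silenced in pachytene. RNA of the 424 X-linked genes that passed the filter had a median log2 ratio of -1.15 in mP/lP against undiff. SpG, and 12474 autosomal genes one of -0.22. Kdm6a (-1.23) was close to the X-linked median and Scml2 (-2.06) below the 25th percentile of X-linked genes, which was -1.72. In D, the X-linked median was -0.69, with -0.55 for Kdm6a and -1.27 for Scml2. In RS, Kdm6a was at -0.93 and Scml2 at -1.77, with an X-linked median of -0.70. Scml2 was lowest in ES, at -2.14, while the X-linked median was -0.36. Before pachytene both were above the X-linked median in pL (0.45 for Kdm6a and 0.21 for Scml2, median 0.07). In L/Z/eP, Scml2 was below it (-0.50) and Kdm6a above it (-0.13), with a median of -0.36. In scATAC-seq, the X-linked median was 0.00 in mP/lP and the autosomal one -0.39, with 0.55 for Scml2 and -0.28 for Kdm6a. Scaled without mitochondrial genes, the medians were 0.51 and 0.10, and the ratios of Scml2 and Kdm6a 1.13 and 0.29.

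**Figure D4:**
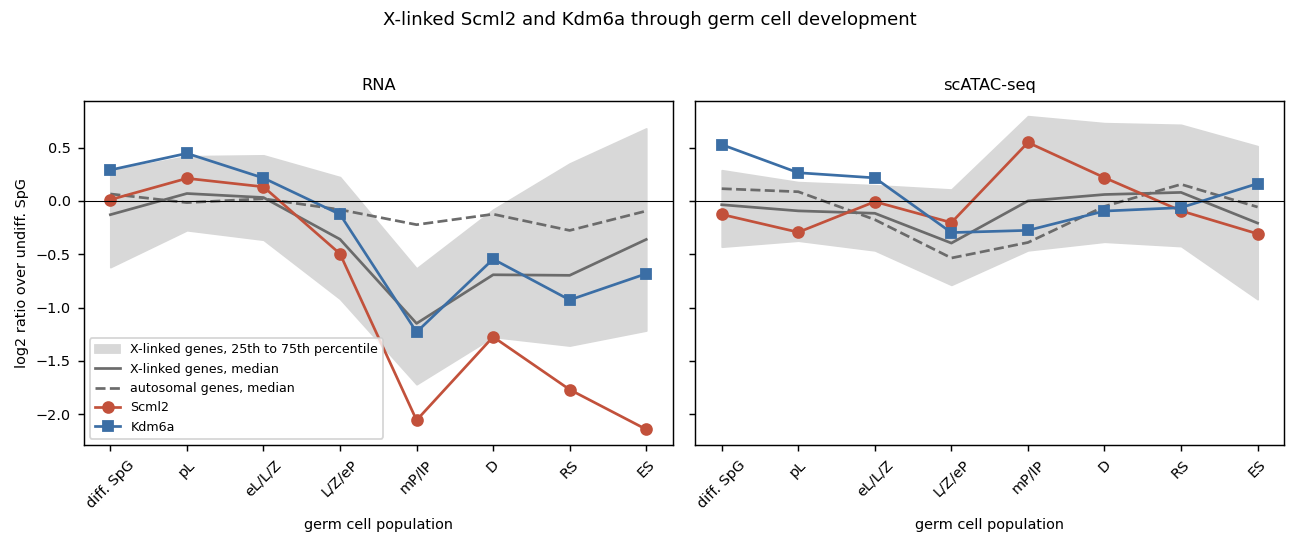
Log2 ratio over undiff. SpG (vertical axis) of Scml2 and Kdm6a through 8 germ cell populations, for RNA (left) and scATAC-seq (right), with the median and the 25th to 75th percentile of X-linked genes and the autosomal median. RNA ratios of Scml2 and Kdm6a are -2.06 and -1.23 in mP/lP, where the X-linked median is -1.15, whereas scATAC-seq ratios of both, with mitochondrial genes in the scaling, stay between -0.31 and 0.55.

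In Sertoli cells against undiff. SpG, 3 of the 10 genes were at least 2-fold lower in RNA, namely Scml2 (log2 ratio -2.14), Ezh1 (-1.29) and Kmt2b (-1.26), as were 20.2% of all genes. None was 2-fold higher, where 12.1% of all genes were, and Rnf2 had the largest positive ratio (0.73). In scATAC-seq, Scml2 was 2-fold lower, at 0.6 against 2.6 per 1000000 (-1.16), with 17.1% of all genes lower and 2.35% higher. Kdm6b had its highest signal of the 13 populations in Sertoli cells, 29.9 per 1000000 (0.69). With a pseudocount of 0.5, or relative to the median of all genes, Scml2 alone was 2-fold lower in Sertoli RNA, and under the second of these Rnf2 was 2-fold higher and no member passed 2-fold in scATAC-seq. In the other somatic cells, Scml2 (-2.03), Ezh1 (-1.17) and Suz12 (-1.13) were at least 2-fold lower in RNA and Ring1 was higher (1.37), against 13.7% and 15.9% of all genes. With a pseudocount of 0.5, Scml2 alone of these stayed past 2-fold. Their scATAC-seq signal of Scml2 was 0.5 per 1000000 (-1.25, within 2-fold relative to the median of all genes or with a pseudocount of 5), where 23.6% of all genes were at least 2-fold lower and 1.71% higher. The other somatic cells were 78.8% from the library labelled Nfya-CKO and held 177 of Insl3, a Leydig marker, and 91.5 of Clu, a Sertoli marker, per 10000. Germ cell markers were present there too. Pachytene markers summed to 4.79 against 1.54 in undiff. SpG, and elongating spermatid markers to 2.74 against 0.312. The part of these markers in the Ring1 ratio was not tested.

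Spermatogonia of the library labelled Nfya-CKO were compared with undiff. SpG to ask how the 10 genes stood where Nfya was to be deleted. Nfya RNA was not lower in this library, at 1.11 (1.03 to 1.18) against 0.456 (0.412 to 0.502) in undiff. SpG. Nfya scATAC-seq signal was lower, at 58.7 against 83.1 per 1000000 with mitochondrial genes in the scaling. In neither assay do values per gene show whether the deleted exons were read. Directions drawn here therefore rest on the label. The library held 0 cells of pL, L/Z/eP, mP/lP, RS and ES and 4 each of eL/L/Z and D. Ezh2 was the gene with an RNA level at least 2-fold lower, at 0.283 (0.247 to 0.323) against 1.08 (1.01 to 1.15), or 0.262 times the control level (log2 ratio -1.62). It rested on 222 UMIs against 957, and 3.36% of all genes were at least 2-fold lower. Its level was also below all the other 11 populations, of which the lowest was 0.688 in the other somatic cells. In scATAC-seq, Ezh2 was again the gene past 2-fold, at 23.3 against 49.3 per 1000000 (-1.05), where 0.441% of all genes were at least 2-fold lower. No member was 2-fold higher, against 4.76% of all genes in RNA and 1.62% in scATAC-seq. At least 2-fold lower in both assays were 14 of 13935 genes, or 0.1%, and Ezh2 was among them. With mitochondrial genes left out of the scaling its scATAC-seq ratio was -0.93, short of 2-fold, and it was also short of 2-fold with a pseudocount of 5.

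Against undiff. SpG, neither partner of Ezh2 was 2-fold lower in RNA. Eed was higher, at 1.20 (1.12 to 1.27) against 0.751 (log2 ratio 0.61), its highest level of the 13 populations. Suz12 was at 1.66 against 2.13 (-0.35), and Ezh1 at 1.16 against 1.35 (-0.20). Kdm6a was at 0.224 against 0.376 (-0.56). The other ratios were those of Scml2 (-0.05), Rnf2 (0.06), Kdm6b (-0.11), Ring1 (-0.18, 0.173 against 0.210) and Kmt2b (0.19). In scATAC-seq, 8 of the 10 genes were lower, after Ezh2 most of all Kdm6a (-0.56), Suz12 (-0.41) and Ezh1 (-0.31), with a median of -0.26 against -0.03 for all genes. Median TSS enrichment, a measure of scATAC-seq quality, was 7.82 in these SpG and 12.5 in undiff. SpG, and their median UMIs were 18361 and 9290. The part of these differences in the ratios was not tested. Eed thus had more RNA and less accessible signal, 33.5 against 40.5 per 1000000 (-0.26).

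Against other control populations the contrast of Ezh2 remained and others joined it. Against diff. SpG, Ezh2 (log2 ratio -1.83) and Ring1 (-1.21) were at least 2-fold lower in RNA, as were 10.8% of all genes. In scATAC-seq, Ezh2 (-1.51), Suz12 (-1.27) and Kdm6a (-1.09) were at least 2-fold lower, as were 8.04%. With mitochondrial genes left out of the scaling, Kdm6a signal was within 2-fold, at 50.1 against 89.9 in diff. SpG. Ezh2 was the member below 2-fold in both assays, with 2.68% of all genes. Diff. SpG also held markers of later germ cells. Their elongating spermatid markers summed to 6.67 per 10000 against 0.312 in undiff. SpG and 0.0970 in the library labelled Nfya-CKO, and their pachytene markers to 5.71 against 1.54 and 0.407. Ring1 is highest in mP/lP, RS and ES among the 13 populations, and the part of these markers in its ratio was not tested. The barcodes shared with diff. SpG touch this comparison, and their part was not tested. Against pL, which had none of these barcodes, Ezh2 (-2.21), Suz12 (-1.17) and Kdm6a (0.224 against 0.549) were at least 2-fold lower in RNA, with 5.34% of all genes. Ezh2 (-1.50) and Suz12 (-1.18) were so in scATAC-seq, with 5.63%, and these were the members lower in both assays, with 1.3% of all genes. Scaled without mitochondrial genes, Suz12 signal was within 2-fold, at 76.3 against 138 in pL. Ezh2, at 43.1 against 98.7 in pL, was then the member lower in both assays. pL are a later stage than SpG, and Suz12 RNA, though not its scATAC-seq signal, is highest there among all populations. Leydig markers summed to 48.2 per 10000 in SpG of the library labelled Nfya-CKO, against 0.158 in undiff. SpG, and Sertoli markers to 24.4 against 3.66. These somatic markers were led by Insl3 (39.8) and Clu (22.8). Undifferentiated markers summed to 16.4 against 15.7, with Zbtb16 at 4.15 against 8.74, Gfra1 at 1.20 against 1.08 and Uchl1, which was also 4.87 in the other somatic cells, at 11.0 against 5.88. Kit, a marker of differentiating SpG, was 1.08 against 0.548. The part of these differences in the Ezh2 ratio was not tested.

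**Figure D5:**
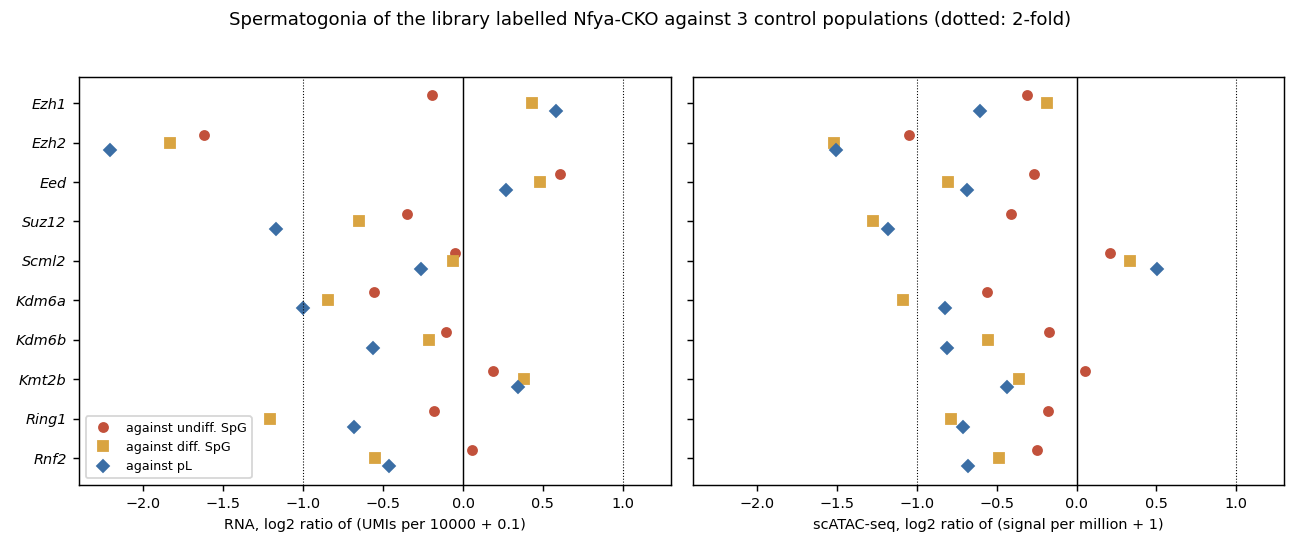
Log2 ratio (horizontal axis, dotted lines at 2-fold) of each gene in SpG of the library labelled Nfya-CKO against undiff. SpG, diff. SpG and pL, for RNA (left) and scATAC-seq (right). With mitochondrial genes in the scaling, Ezh2 lies beyond 2-fold against all 3 controls in both assays (-1.62, -1.83 and -2.21 in RNA, and -1.05, -1.51 and -1.50 in scATAC-seq). Without them, its scATAC-seq ratio against undiff. SpG is -0.93, short of 2-fold.

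The wider Polycomb and Trithorax system was followed in a list of 51 other genes, of which 50 were in each matrix. In pL against undiff. SpG, 3 of the 49 that passed the filter were at least 2-fold higher in RNA (2.83% of all genes) and 6 lower (7.64%). Phc3, a polyhomeotic subunit of PRC1, went from 0.392 to 1.08, while Pcgf6, of a variant PRC1, went from 0.736 to 0.137 and Setd1b, a methyltransferase of lysine 4, from 1.69 to 0.264. With a pseudocount of 0.5, 2 of these 9 calls were left, and Phc3 and Pcgf6 were within 2-fold. In mP/lP, 17 of 49 were lower (23.4% of all genes) and 4 higher (15.4%), with 13 past 2-fold in all with a pseudocount of 0.5. Cbx2, a chromobox subunit of PRC1, was at 0.0659 against 1.52 there, and Hcfc1, an X-linked cofactor, at 0.271 against 2.78. Phf1, an accessory subunit of PRC2, was at 4.40 against 0.813, and Pcgf6 at 1.70.

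In SpG of the library labelled Nfya-CKO against undiff. SpG, 2 of the 49 were at least 2-fold lower (3.36% of all genes) and 1 higher (4.76%), which is near the share over all genes. Cbx2 was at 0.563 against 1.52 and Setd1b at 0.552 against 1.69. Asxl3, of the family that activates the H2A deubiquitinase, was at 12.9 against 0.975, and it was also high in RS (24.2), ES (23.8), the other somatic cells (11.7) and diff. SpG (10.7), but 0.287 in pL. Diff. SpG also held 3.94 of Prm1 and 1.18 of Acrv1, markers of spermatids, against 0.155 and 0.157 in undiff. SpG, and their part in the Asxl3 level was not tested. In scATAC-seq none of the 50 passed 2-fold against undiff. SpG, where 0.441% of all genes were lower and 1.62% higher. Against diff. SpG, 8 of the 50 were at least 2-fold lower (8.04% of all genes), and against pL 9 were (5.63%). In both assays together, 0 of 49 were lower against each control, where the shares of all genes were 0.1%, 2.68% and 1.3% (undiff. SpG, diff. SpG and pL). The median of the 50 in scATAC-seq was -0.37, against -0.03 for all genes.

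Genes whose RNA profile was most like that of a member were sought over the 9 control germ cell populations, among the 10060 genes averaging 0.2 or more UMIs per 10000, by Pearson's r of log2 levels. Ezh2 was closest to Luc7l2 (0.99) and Boll (0.99), Ezh1 to Zfp335 (0.99) and Mapk7 (0.99), and Suz12 to Cdc7 (0.99) and Yes1 (0.99). Eed was closest to Scaf8 (0.995) and Syncrip (0.995), Scml2 to Usp26 and Syt14 (0.99 each), and Kdm6a to Bmpr2 and Eif4ebp3 (0.98 each). Kdm6b was closest to Cdyl2 (0.99) and Parn (0.98), Kmt2b to Nt5dc1 and Epc1 (0.98 each), Ring1 to Actr1a (0.98) and Bola3 (0.98), and Rnf2 to Mrps18c and Canx (0.97 each). With 9 points these neighbours are not stable: of the 20 genes, 2 were still among the closest by Spearman's rho and 3 by Pearson's r over all 13 populations. Among the members themselves, Scml2 and Kdm6a had an r of 0.95, and Ring1 was the inverse of Ezh1 (-0.87) and Scml2 (-0.86).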

How the data were processed

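Per the labels and the study's methods, the authors aligned scRNA-seq reads with STAR 2.7.10b and scATAC-seq reads with BWA 0.7.12 to mm10 and filtered cells with Seurat 5.2.1, DoubletFinder and ArchR 1.0.3. The authors deposited a natural log matrix per assay with 1 value per gene and population, and per cell the count of UMIs or fragments, the percent of mitochondrial UMIs and the TSS enrichment, a ratio. RNA values were converted by exp(value) - 1. Of the 20 lowest values of each population, 20 equalled 1 UMI of 1 cell divided over the population, within 0.01 UMIs. The exceptions were eL/L/Z and ES, with 19 each, and the unknown population, with 16. scATAC-seq values were rescaled to 1000000 per population. A further 20 columns were not used. Poisson intervals used the harmonic mean depth of the cells. Log2 ratios used pseudocounts of 0.1 (RNA, mean of at least 0.05) and 1 (scATAC-seq, signal above 0 in both), with Python 3.11.15, pandas 2.3.3 and scipy 1.17.1, and the code was tested on simulated data. The genes named were the 10 members, Nfya, of the other listed genes the 2 furthest in each direction past 2-fold, from which some are described, and the 2 closest profiles per member. Pcgf6 in mP/lP and Asxl3 in further populations were added after their values were seen. Members and lists were chosen with earlier results of these data known. Gene positions came from RefSeq on GRCm38, which is mm10, and exons from GENCODE. Promoter sequences of Kdm6b and Kmt2b and protein sequences were not used here. Alternatives changed pseudocounts, filter, scaling, fold, control population and window. A ratio counted as kept within 1.5-fold, and so did a count. Results of some named genes of the wider list are not reported here.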

Additional observations from a re-analysis of the deposited data

How the results depend on the processing

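No paired analysis was possible because each condition has 1 library per assay and the matrices pool the libraries, so no library could be left out either. Of 949 values under 21 alternatives and 1 chosen after the data were seen, 850 were kept and 99 moved, and 0 called ratios changed sign. A kept count need not be of the same genes: in scATAC-seq of RS, centring or scaling without mitochondrial genes put Scml2 (lower) in place of Ring1 (higher), and in Sertoli RNA centring kept Scml2, lost Ezh1 and Kmt2b and added Rnf2 (higher). Shares of all genes are given at 2-fold only, so counts at other folds show how a count depends on the setting and nothing more. For the 10 members in RNA, a fold of 1.5 gave 3 apart in pL, 7 in RS against mP/lP, 2 in ES against RS and 2 in SpG of the library labelled Nfya-CKO. A fold of 3 gave 2 in mP/lP, 0 in RS, 1 in Sertoli cells and 1 in the other somatic cells. A pseudocount of 0.5 left 1 in Sertoli cells and 1 in the other somatic cells, while one of 0.02, or centring on the median of all genes, gave 1 in ES (Kdm6b). Control by diff. SpG gave 2 and by pL 3 in RNA, and 3 and 2 in scATAC-seq with mitochondrial genes in the scaling. Without them, Kdm6a against diff. SpG and Suz12 against pL were within 2-fold. In scATAC-seq, a fold of 1.5 gave 2 in pL, 2 in mP/lP, 4 in RS, 3 in ES, 2 in Sertoli cells and 4 in the other somatic cells. A fold of 3 or a pseudocount of 5 gave 0 in RS, ES, Sertoli cells, the other somatic cells and the library labelled Nfya-CKO. Scaling without mitochondrial genes gave 1 in mP/lP (Scml2), and 0 in ES and in the library labelled Nfya-CKO. Centring gave 0 in both somatic comparisons. For the other listed genes in RNA, a pseudocount of 0.5 gave 2 in pL, 13 in mP/lP, 6 in RS, 1 in ES and 9 in Sertoli cells. A fold of 1.5 gave 18 in pL, 28 in RS, 18 in ES, 31 in Sertoli cells, 32 in the other somatic cells and 11 in the library labelled Nfya-CKO. Over the 250 bases before the start alone, CCAAT stood in 33.8%, GGGCGG in 32.7% and TTTNGCGC in 1.13% of all promoters, and TTTNGCGC in 0 members. The cause of these moves was not tested beyond the setting itself. Ezh2 RNA stayed at least 2-fold lower in the library labelled Nfya-CKO under each alternative run at that fold, with log2 ratios from -2.21 to -1.01, and its scATAC-seq ratio ran from -1.51 to -0.93. Depth limits the unknown population most, where 6.55 to 25.3 UMIs stand behind each member.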
